A study of Mus musculus with 2 samples.

Results

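Mitochondrial ribosomal proteins were followed in G1E-ER-GATA-1 cells, a mouse erythroid line, after siRNA against ETO2. Members were chosen by name alone, as all non-control probes whose gene name begins with Mrpl (large subunit) or Mrps (small subunit) followed by a digit. The array carried 125 such probes, of which 119 were well above background in the same channel on both arrays and were kept. They stand for 75 genes, 46 of the large and 29 of the small subunit, among 16585 genes and transcripts tested, and every gene kept at least 1 probe.

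The line derives from GATA-1-null cells, which cannot complete red cell maturation, and expresses a fusion of GATA-1 with an oestrogen receptor that β-estradiol activates. Per the labels, cells received control siRNA or siRNA against the corepressor ETO2 (gene Cbfa2t3) before 24 h of β-estradiol. The induction, the line and the transfection are therefore shared by both groups, and the labels name no untransfected or uninduced sample. Each of 2 Agilent arrays set control RNA (Cy5, red) against ETO2 siRNA RNA (Cy3, green), so that n = 2 throughout, without a dye swap. Ratios are ETO2 siRNA over control siRNA on the log2 scale, and levels are log2 normalized channel intensities of 1 probe. An error after ± is the SD between the 2 arrays.

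Mitochondria keep their own ribosomes, which translate the few proteins encoded by mitochondrial DNA, all of them parts of the respiratory chain and ATP synthase. The ribosomal RNAs come from mitochondrial DNA, but all the ribosomal proteins are encoded in the nucleus, made in the cytosol and imported. Some descend from bacterial ribosomal proteins and others are found only in mitochondria. Maturing erythroid cells need mitochondria for haem synthesis and clear them before they become red cells.

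The targeted transcript was lower under its siRNA, and the cells had erythroid markers. By its brightest probe Cbfa2t3 read -0.39 on array 1 and -0.46 on array 2, a log2 ratio of -0.42 ± 0.05. This is 74.6% of control (limma adjusted p = 9.10e-05), and with its probes averaged the log2 ratio was -0.32. All 7 erythroid markers on the array were well above background. The labels also call the cells ES cells, but Pou5f1, Nanog and Sox2, which define embryonic stem cells, were not above background, and Esrrb was the 1 of 6 ES cell markers that was. Of other lineages, 4 of 5 megakaryocyte, 4 of 4 lymphocyte, 3 of 5 mast cell, basophil and eosinophil, 3 of 6 granulocyte and macrophage and 1 of 3 fibroblast markers were above background. Erythroid marker levels lay between 11.19 and 15.99, with a median of 13.76 in the control and 15.21 in the ETO2 siRNA channel. Each median was taken within its channel, saturation of these probes was not examined, and the difference was not tested. Megakaryocyte markers reached 12.94, inside the erythroid range, with medians of 10.96 and 11.59, while lymphocyte markers lay between 6.51 and 8.17. The part of other cells in the results was not tested. The median spot signal in scanner units was 82.8 and 77.5 for ETO2 siRNA and 105 on both arrays for the control, whose channel was saturated at 471 and 495 spots.

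Mitochondrial ribosomal protein transcripts did not move one way after ETO2 siRNA. Of 75 genes, 20 were higher, 17 were lower and 38 did not pass the threshold (limma, adjusted p under 0.05). Over all tested genes, 18.4% were higher and 22.3% lower, or 40.7% in either direction, so that the members' calls are not far from the background of the array. The members' median log2 ratio was -0.0058, and that of all tested genes was -0.018. By the brightest probe of each gene, ratios ran from -0.53 (Mrpl20) to 0.55 (Mrpl9), no member reached 1.5-fold, which 3.48% of all genes did, and 15 reached 1.2-fold, against 22.9% of all genes. Mrpl52 was past 1.5-fold lower by another of its probes (-0.88) and with its probes averaged (-0.63). Levels in the ETO2 siRNA channel lay above both control levels in 27 genes, where 27.5% of all genes did, and below both in 29, where 34.6% did. Channels were thus apart in 62.1% of all genes, and in the other 19 members they overlapped.

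The calls rest on the normalization. On the scanner software's own processed signals, 36 of the 37 called members kept their sign, but only Mrpl9 and Mrpl28 passed the threshold. The control channel of the Mrpl28 probe was saturated on both arrays, and the other Mrpl28 probe did not pass in the loess fit (0.077). On the processed signals 7.21% of all genes were higher and 7.7% lower, or 14.9% in either direction. The deposited log ratios gave the same 2 members, beside 6.9% of all genes higher and 7.37% lower, or 14.3%. When arrays were centred on their median without loess, the median of all genes moved to -0.31 and the members' median to -0.57, which is -0.26 relative to all genes. No member was then higher, beside 2.8% of all genes, and 68 were lower, beside 65.2%, or 68% in either direction. With no offset in the background correction 12 members were higher and 10 lower, beside 16.3% and 19.4% of all genes (35.7% in either direction). With the probes of a gene averaged 16 members were higher and 11 lower, beside 17.3% and 20% of all genes (37.3% in either direction). Counted by probe, 33 member probes were higher and 23 lower, beside 18.8% and 20.7% of all probes (39.4% in either direction). All 37 calls held without the filter on dim probes, where 11.4% of all genes were higher and 13.9% lower (25.3%), and 34 held with saturated probes left out, where 17.1% were higher and 22.4% lower (39.4%). Some limits hold for all values below. With 2 arrays there is 1 residual degree of freedom, beside 13.6 of the prior that limma draws from all genes. A p-value thus rests mostly on spread pooled over genes, not on the SD printed beside it. The labels do not say whether the RNAs came from separate cultures, so that p-values measure only the spread between these arrays. A dye effect of a probe enters its ratio unseen. In bulk RNA, fewer cells of a type and less RNA per cell cannot be told apart.

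**Figure D1:**
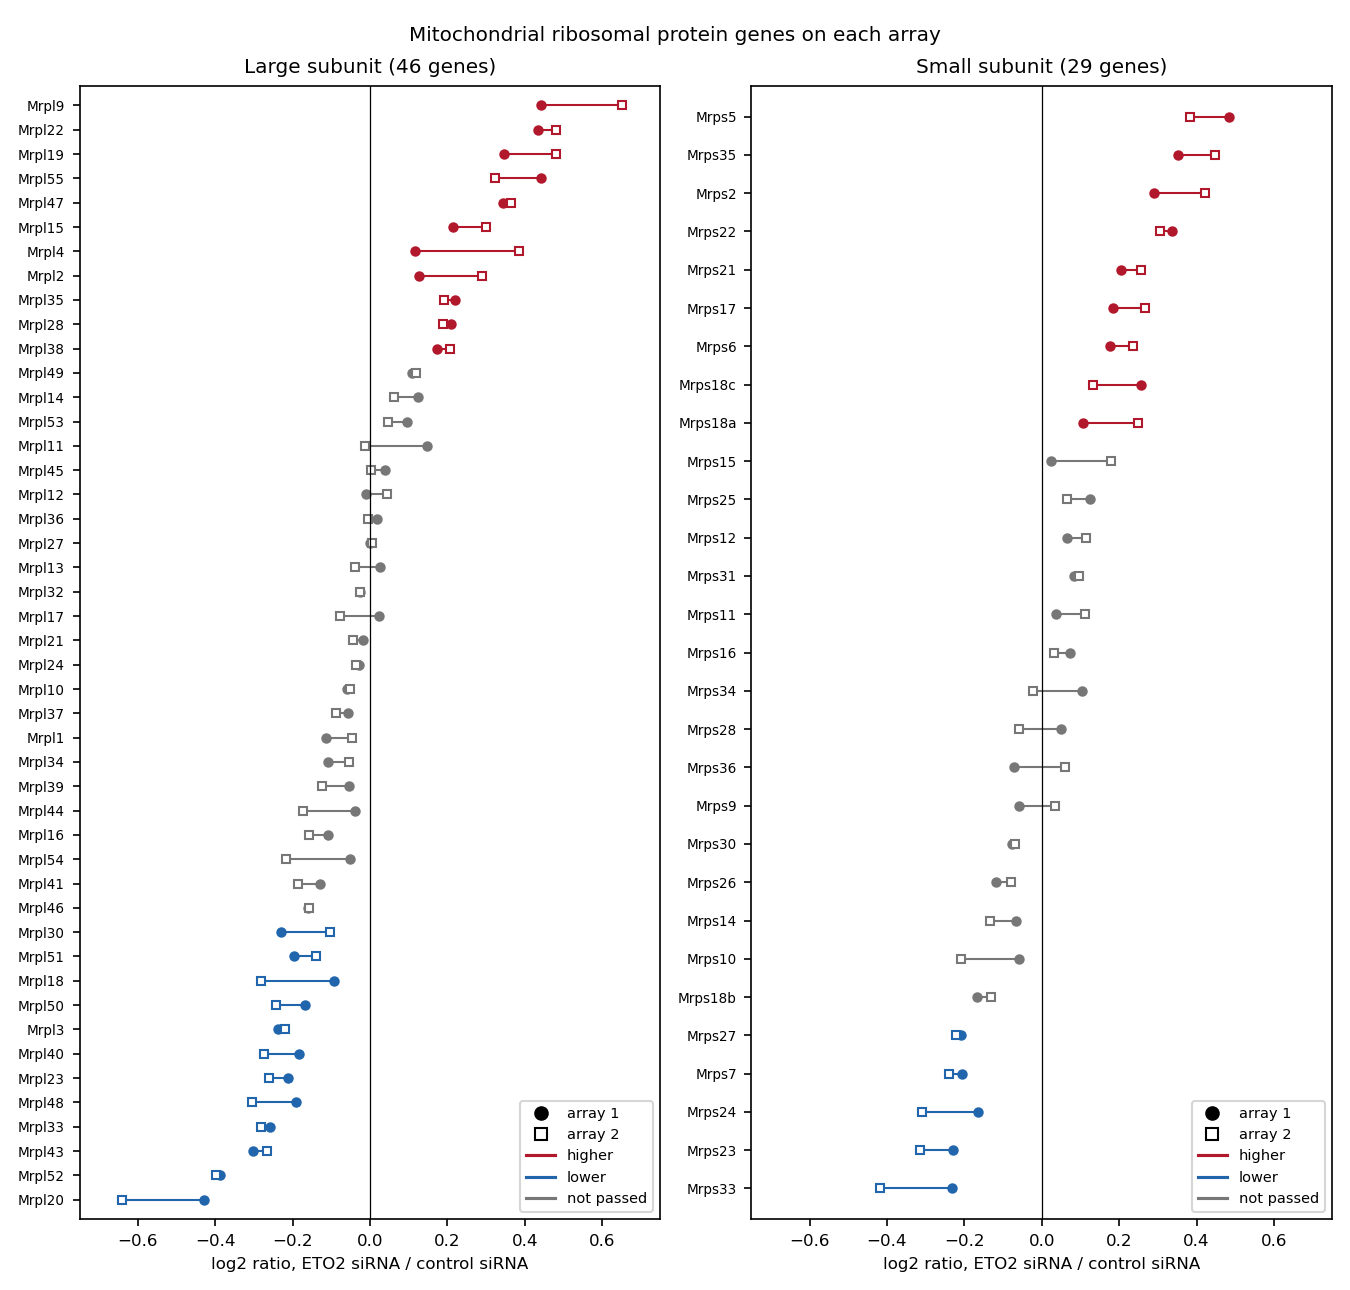
Log2 ratio of ETO2 siRNA over control siRNA (x axis) for each mitochondrial ribosomal protein gene, by its brightest kept probe. Filled circles are array 1, open squares array 2, and the line joins them; red marks genes called higher, blue called lower and grey not passed. Ratios run from Mrpl20 (-0.53), which lies apart from the next lowest, Mrpl52 (-0.39), to Mrpl9 (0.55), and with median centring every rise but Mrpl9 falls below 0.

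In the large subunit 11 genes were higher and 12 lower, 23 missed the threshold, and the median ratio was -0.032. In the small subunit 9 were higher and 5 lower, 15 missed it, and the median was 0.052. Of all tested genes 18.4% were higher and 22.3% lower. The large subunit median lay below the small subunit median on both arrays, with a difference of -0.077 on array 1 and -0.11 on array 2. Over both arrays the difference was -0.084, with an SD of 0.021 between arrays. Members are not replicates, and the smallest two-sided p of a sign permutation over 2 arrays is 0.5, so this difference was not tested. Both subunits held rises and falls, and the difference of the medians is small beside the range within each.

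Names do not fully follow the structure of the mammalian ribosome. Mrps18a and Mrps30 belong to the large subunit, and Mrps36 is known as a part of the oxoglutarate dehydrogenase complex. Placed by structure, 12 of 48 large subunit genes were higher and 12 lower, and 8 of 26 small subunit genes were higher and 5 lower. This is 50% called in each, against 40.7% of all tested genes (18.4% higher and 22.3% lower). The difference of the medians was -0.095. Mrps18a rose (0.18 ± 0.10, adjusted p = 0.0382), while Mrps30 read -0.073 and Mrps36 -0.0048.

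Mrpl9, a homologue of a bacterial protein of the large subunit, had the largest rise. Its control levels were 11.53 and 11.38 and its ETO2 siRNA levels 11.97 and 12.03 on arrays 1 and 2. The channels did not overlap, and the log2 ratio of 0.55 ± 0.15 is a 1.46-fold higher signal (adjusted p = 1.91e-05). It was also the single rise that stayed above 0 with median centring, at 0.051.

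Mrpl22 and Mrpl47, whose proteins line the exit of the tunnel through which the new chain leaves, rose as well. Mrpl22 had control levels of 11.95 and 11.91 and ETO2 siRNA levels of 12.39 on both arrays, which is 1.37-fold (0.46 ± 0.03, adjusted p = 4.45e-05). Mrpl47 went from 12.09 and 11.98 to 12.43 and 12.35 (0.35 ± 0.01, adjusted p = 3.77e-04). Another tunnel protein went the other way. Mrpl23 went from 14.94 and 14.93 to 14.73 and 14.67 (-0.24 ± 0.03, adjusted p = 0.00702), but read 0.14 on the processed signals. Mrpl24 (-0.032) and Mrpl45 (0.021), the mitochondrial protein that helps tether the ribosome to the inner membrane, did not pass. The other Mrpl45 probe was higher (0.38 ± 0.18, adjusted p = 5.76e-04 over all kept probes), and with probes averaged Mrpl45 read 0.20 and passed (adjusted p = 0.0163). By the brightest probe, 2 of these 5 tunnel proteins rose and 1 fell, beside 18.4% of all tested genes higher and 22.3% lower.

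The other 5 of the 8 largest rises in the large subunit were in genes of bacterial descent. Mrpl19 read 0.35 and 0.48 on the 2 arrays (0.41 ± 0.10, adjusted p = 1.43e-04) and Mrpl55 0.44 and 0.32 (0.38 ± 0.08, adjusted p = 2.60e-04). Mrpl15 read 0.21 and 0.30 (0.26 ± 0.06, adjusted p = 0.00435). Mrpl4 and Mrpl2, the latter near the peptidyl transferase centre, showed a wider gap between arrays. Mrpl4 read 0.12 and 0.39 (0.25 ± 0.19, adjusted p = 0.0111), the largest SD of any member, and Mrpl2 read 0.13 and 0.29 (0.21 ± 0.12, adjusted p = 0.0195). In all 5 both ETO2 siRNA levels lay above both control levels.

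The largest fall was in Mrpl20, whose bacterial counterpart acts early in the assembly of the large subunit. Its control levels were 14.97 and 15.07, and its ETO2 siRNA levels were 14.55 and 14.43. This is a 1.45-fold lower signal, with a log2 ratio of -0.53 ± 0.15 (adjusted p = 2.39e-05). On the processed signals the ratio was -0.22 and did not pass (adjusted p = 0.139).

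Mrpl52, a protein found only in mitochondrial ribosomes, followed. It went from 15.02 on both arrays to 14.63 and 14.62, which is 1.31-fold lower, and the arrays differed little (-0.39 ± 0.01, adjusted p = 1.61e-04). Mrpl43, also specific to mitochondria, read -0.30 and -0.27 (-0.28 ± 0.03, adjusted p = 0.00198). Mrpl3, which reaches toward the peptidyl transferase centre, read -0.24 and -0.22 (-0.23 ± 0.01, adjusted p = 0.00846). With all probes of a gene averaged, Mrpl43 (-0.070) and Mrpl3 (-0.031) no longer passed.

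In 2 members the control channel was saturated on both arrays, so that the true control level was at least the one measured. Mrpl33 had control levels of 15.49 and 15.47 and ETO2 siRNA levels of 15.24 and 15.19. In the loess fit it was at least 1.20-fold lower (limma adjusted p = 0.00294), a bound that covers clipping alone and rests on the normalization. On the processed signals no member was called lower. Mrpl28 is given no fold, because its normalized ETO2 siRNA levels (15.68 and 15.66) lay above those of a channel at the scanner's limit (15.47 on both arrays). Its normalized ratio of 0.20 (adjusted p = 0.0184) enters the 11 calls above 0 of the large subunit but is not a measured rise. The unsaturated Mrpl28 probe read 0.077, and with saturated probes left out the call was lost (adjusted p = 0.352).

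Of 5 genes placed here in the central protuberance, the large subunit's crown, 3 were lower and 1 higher, beside 22.3% and 18.4% of all genes. These 5 need not be all the proteins of that site, so the count does not describe it as a whole. Of 5 proteins known from it, Mrpl48 (-0.25 ± 0.08, adjusted p = 0.00609), Mrpl40 (-0.23 ± 0.06, adjusted p = 0.00933) and Mrpl18 (-0.19 ± 0.13, adjusted p = 0.0349) fell, Mrpl38 rose (0.19 ± 0.02, adjusted p = 0.0227) and Mrpl46 read -0.16 on both arrays (adjusted p = 0.0528). On the processed signals none of the 5 passed, and with probes averaged Mrpl48 and Mrpl46 did. Probes lay on both sides of 0 in Mrpl40 (-0.23 to 0.14), Mrpl18 (-0.19 to 0.32) and Mrpl38 (-0.24 to 0.19). The 4 proteins placed in stalks of the large subunit did not pass by their brightest probes: Mrpl1 read -0.081, Mrpl10 -0.055, Mrpl11 0.067 and Mrpl12 0.017. The other Mrpl1 probes were both higher, at 0.27 ± 0.10 (adjusted p = 0.00404 over all kept probes) and 0.30 ± 0.04 (adjusted p = 0.00155), and with probes averaged Mrpl1 read 0.16 and passed (adjusted p = 0.0387).

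Members were also counted by descent, beside 18.4% of all tested genes higher and 22.3% lower, or 40.7% in either direction. In the large subunit, of 30 homologues of bacterial proteins, 10 were higher and 6 lower, with a median of -0.0014. Of 16 proteins specific to mitochondria, Mrpl38 alone was higher and 6 were lower (Mrpl40, Mrpl43, Mrpl48, Mrpl50, Mrpl51 and Mrpl52), with a median of -0.15, and all 16 had the same sign on both arrays. In the small subunit, 7 of 18 homologues were higher and 2 lower (median 0.082), and 2 of 11 mitochondria-specific proteins were higher and 3 lower (median -0.0048). From 43.8% to 53.3% of the members of each class were called in either direction. The Mrpl38 call was lost with its probes averaged (-0.071), and so were the falls of Mrpl40 and Mrpl43. The 2 kept Mrpl50 probes lay on both sides of 0 (-0.20 and 0.16), while both Mrpl52 probes were lower. On the processed signals no member was called lower. The difference between these classes was not tested.

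In the small subunit the largest rise was in Mrps5, which lies at the entry of the mRNA channel. Its control levels were 11.60 and 11.63 and its ETO2 siRNA levels 12.09 and 12.01, a 1.35-fold higher signal (0.43 ± 0.07, adjusted p = 8.37e-05). Mrps35, specific to mitochondria, went from 11.46 and 11.44 to 11.81 and 11.88 (0.40 ± 0.07, adjusted p = 1.61e-04). Mrps2, of bacterial descent, went from 11.43 and 11.44 to 11.72 and 11.86 (0.36 ± 0.09, adjusted p = 4.90e-04). In all 3 the channels did not overlap. The Mrps2 call was lost when its 3 probes were averaged (0.062).

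Mrps22, a mitochondria-specific protein whose gene is mutated in a human mitochondrial disease, read 0.34 and 0.30 (0.32 ± 0.02, adjusted p = 8.27e-04). Smaller rises were those of Mrps21 (0.23 ± 0.04, adjusted p = 0.00820), Mrps17 (0.23 ± 0.06, adjusted p = 0.00964), Mrps6 (0.21 ± 0.04, adjusted p = 0.0159) and Mrps18c (0.19 ± 0.09, adjusted p = 0.0243). All 4 are homologues of bacterial proteins.

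Mrps33 had the largest fall of the small subunit. Its control levels were 14.87 and 14.94 and its ETO2 siRNA levels 14.63 and 14.52, a 1.25-fold lower signal (-0.32 ± 0.13, adjusted p = 0.00125). Mrps23 read -0.23 and -0.31 (-0.27 ± 0.06, adjusted p = 0.00306), and Mrps24 read -0.17 and -0.31 (-0.24 ± 0.10, adjusted p = 0.00883). Mrps7, in the head of the subunit, read -0.21 and -0.24 (-0.22 ± 0.02, adjusted p = 0.00996). Mrps27, a mitochondria-specific RNA-binding protein, read -0.21 and -0.22 (-0.21 ± 0.01, adjusted p = 0.0124). Mrps12, whose bacterial counterpart sits at the decoding centre, read 0.090 and did not pass.

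The 2 arrays ranked the members alike. Across the 75 genes, which are not independent replicates and share both arrays and dyes, Pearson's r between the arrays' ratios was 0.925 and Spearman's rho 0.924, and 65 genes had the same sign on both. The median SD between arrays was 0.042. Ratios also went with brightness. Among the 38 members with brighter probes 5 were higher and 11 lower, and among the 37 with dimmer probes 15 were higher and 6 lower. Across members r was -0.293 between ratio and mean level, -0.399 in the large subunit and -0.0760 in the small. Divided at the same level, 622 of 2085 brighter genes of the array were higher and 620 lower, and 2429 of 14500 dimmer ones were higher and 3076 lower. The part of brightness in the members' ratios was not tested.

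Different probes of the same gene differed more than the arrays did. For 30 genes more than 1 probe was kept, giving 60 pairs, and the median difference within a pair was 0.252, against 0.174 in 11045 pairs of 5343 other genes. In 34 pairs (56.7%) the signs were opposite, against 40.6% in the other genes. In 8 pairs (13.3%) the probes passed the threshold in opposite directions, against 4.56%. By gene, Mrps17 alone had all its probes higher, Mrpl52 alone all lower, 5 genes had none past the threshold, 17 had some, and 6 had probes called both ways. Among the 5343 other genes, 396 had probes called both ways, and the other groups were not counted there. No difference between probes was tested.

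**Figure D2:**
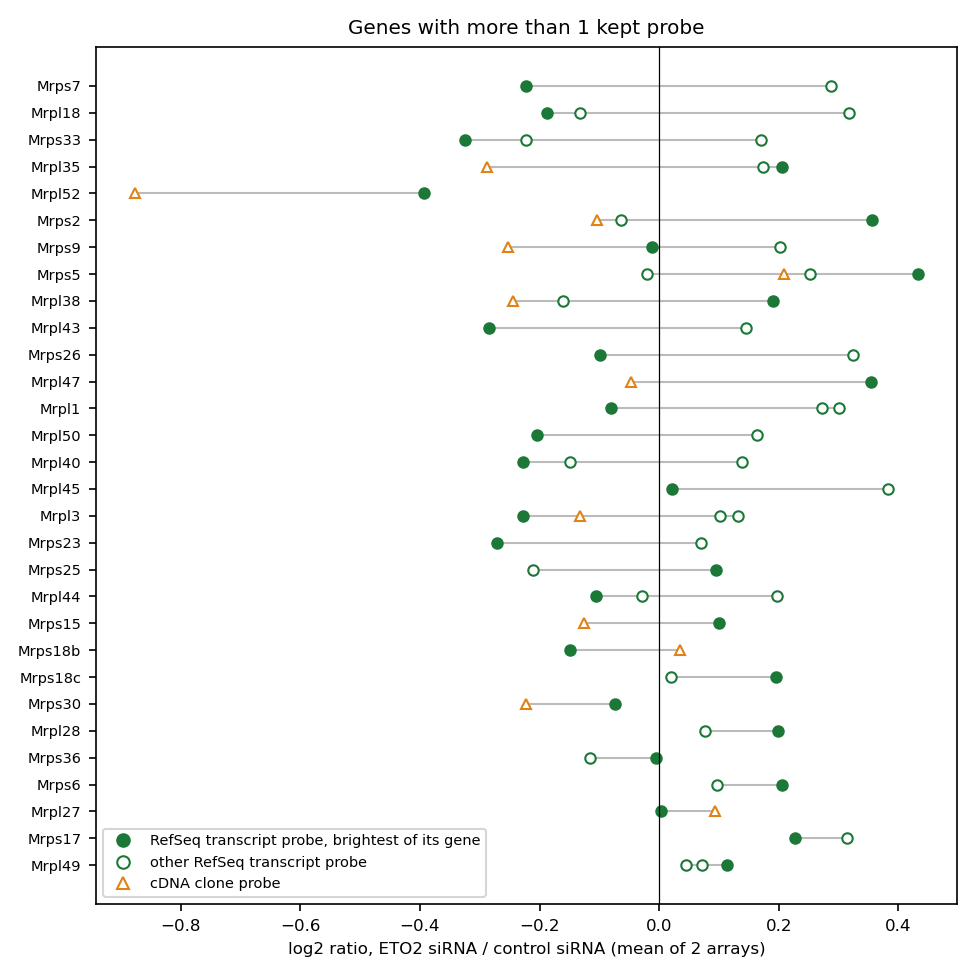
Log2 ratio of ETO2 siRNA over control siRNA (x axis, mean of 2 arrays) of each kept probe in the 30 genes with more than 1, ordered by the gap between their extreme probes. Filled circles are the probe that represents the gene, open circles other RefSeq transcript probes and triangles cDNA clone probes. Mrps7 spans from -0.22 to 0.29, while all probes of Mrps17 and Mrpl49 lie above 0; under median centring representative probes shift below 0.

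The 6 genes with opposite calls were Mrpl18, Mrpl35, Mrpl38, Mrps7, Mrps9 and Mrps33, here adjusted over all 24430 kept probes. Mrps7 had 1 probe at -0.22 ± 0.02 (adjusted p = 0.0114) and another at 0.29 ± 0.10 (adjusted p = 0.00266). Mrps9 had probes at 0.20 ± 0.16 (adjusted p = 0.0303), -0.012 and -0.25 ± 0.03 (adjusted p = 0.00520). In Mrpl35 both RefSeq probes were above 0 (0.20 and 0.17), and a probe of a cDNA clone was at -0.29 ± 0.06 (adjusted p = 0.00226). Mrpl38 had a clone probe at -0.24 ± 0.07 (adjusted p = 0.00730) and RefSeq probes at 0.19 and -0.16.

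Clone probes of the members lay mostly below 0. Of the 12 kept member probes designed on cDNA clones, 9 lay below 0, with a median of -0.13, against a median of 0.021 over 107 RefSeq probes. Mrpl52 had a clone probe at -0.88 ± 0.11 (adjusted p = 9.26e-08), below the -0.39 of its RefSeq probe. Levels of the clone probes ran from 6.28 to 9.75, where the offset of the background correction draws ratios toward 0. Which part of each gene these clones hold was not analysed here.

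Overlapping probes can differ as well. Among kept probes of the same member gene, 4 pairs share a run of at least 10 bases, and in all 4 the probes lie on opposite sides of 0. The 60-base probe sequences are taken from the array files, in lower case with the shared run in capitals. Mrps33 is shown because its probes, which share 33 bases and differ on the 5′ side, are assigned to different RefSeq transcripts and were called in opposite directions. The probe of NM_001010930 read 0.20 and 0.14 (0.17 ± 0.04, adjusted p = 0.0440), and that of NM_010270 read -0.17 and -0.28 (-0.22 ± 0.08, adjusted p = 0.0129).
Mrps33, NM_001010930: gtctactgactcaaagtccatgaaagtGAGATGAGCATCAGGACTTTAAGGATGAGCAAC
Mrps33, NM_010270: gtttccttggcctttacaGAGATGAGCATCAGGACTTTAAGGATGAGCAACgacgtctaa

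Mrpl18 and Mrps23 are shown because both probes of each pair are assigned to the same transcript. The letters of the Mrpl18 probes part after the shared run, so that this pair, like that of Mrps33, does not read 1 continuous stretch. The Mrpl18 pair shares 12 bases and differs by 0.450: the first probe read 0.30 and 0.34 (0.32 ± 0.03, adjusted p = 0.00102) and the second -0.14 and -0.12 (-0.13 ± 0.01, adjusted p = 0.111). The representative Mrpl18 probe, which shares no such run with them, fell (-0.19). The Mrps23 pair shares 21 bases at the end of the first and the start of the second. Its first probe read -0.27 ± 0.06 (adjusted p = 0.00347) and its second 0.069 ± 0.08 (adjusted p = 0.427).
Mrpl18, first probe: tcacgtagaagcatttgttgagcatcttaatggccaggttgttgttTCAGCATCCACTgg
Mrpl18, second probe: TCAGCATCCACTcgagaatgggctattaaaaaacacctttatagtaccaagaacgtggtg
Mrps23, first probe: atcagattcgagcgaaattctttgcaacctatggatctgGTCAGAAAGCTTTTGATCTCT
Mrps23, second probe: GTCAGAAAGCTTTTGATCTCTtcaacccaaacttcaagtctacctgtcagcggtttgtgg

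Mrpl40 gave the fourth pair, which runs on like that of Mrps23, with 24 shared bases and ratios of 0.14 ± 0.04 and -0.15 ± 0.09, neither past the threshold. As another feature of sequence, 17 of the 119 member probes (14.3%) hold AATAAA or ATTAAA on the printed strand, the usual signals for poly(A) addition, against 6.75% of all kept probes. The median ratio was -0.081 in these 17 and 0.026 in the other 102. Over all kept probes the medians were -0.021 with and -0.0091 without the letters. These matches describe the probes and mark no site in use.

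**Figure D3:**
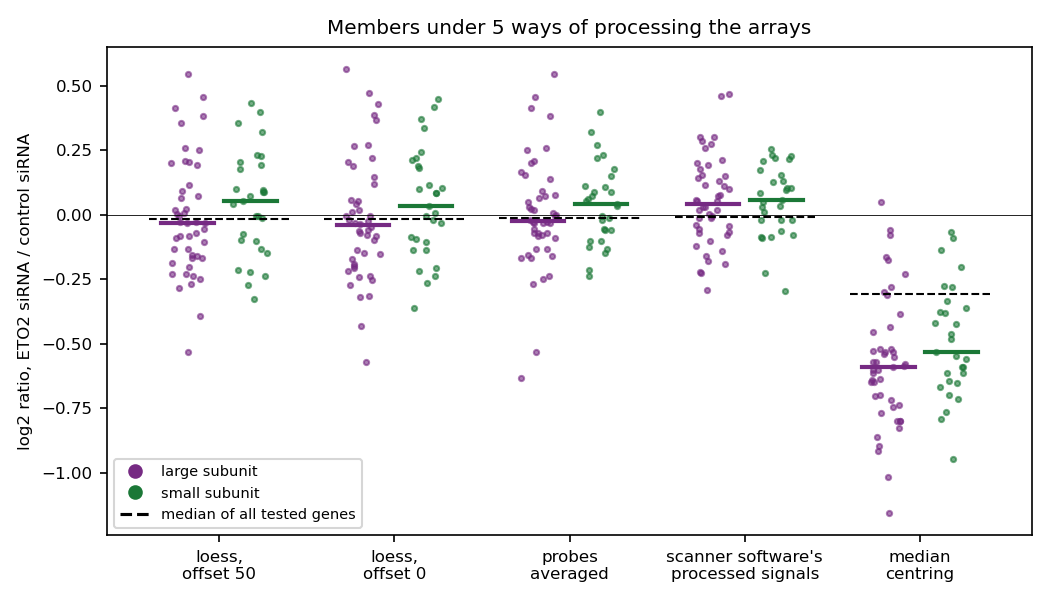
Log2 ratio of ETO2 siRNA over control siRNA (y axis) of each member under 5 ways of processing (x axis); dots are genes, coloured bars the median of each subunit and dashed bars the median of all tested genes. The subunit medians stay within 0.1 of 0 in the first 4 and lie at -0.59 and -0.53 with median centring, where the median of all genes is -0.31.

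Genes that act with the mitochondrial ribosome were mixed too, beside 18.4% of all tested genes higher and 22.3% lower. Called in either direction were 28.6% of the mitoribosomal proteins with other symbols and 50% of the assembly factors, against 40.7% of all genes. Of 7 mitoribosomal proteins with other symbols, Ptcd3 rose (0.20 ± 0.11, adjusted p = 0.0227), Chchd1 passed with a control channel saturated on both arrays and is given no fold, and none fell (median 0.0066). Of 22 assembly factors, 7 were higher and 4 lower (median 0.020). The GTPase Noa1 (0.42 ± 0.15), the rRNA methyltransferase Mrm3 (0.33 ± 0.01) and Mpv17l2 (0.29 ± 0.01) rose most. Mrm1, another rRNA methyltransferase (-0.29 ± 0.06), the rRNA chaperone Eral1 (-0.28 ± 0.05) and the small subunit maturation factor Rbfa (-0.27 ± 0.06) fell most, and with probes averaged 1 of the 4 falls remained, that of Rbfa.

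Among 15 mitochondrial translation factors 5 were higher and 2 lower, with a median of 0.097. This is 46.7% called, and in mitochondrial DNA expression 17.6% were called, against 40.7% of all genes. The recycling factors Gfm2 (0.33 ± 0.04) and Mrrf (0.31 ± 0.04) and the mRNA-stabilizing Lrpprc (0.31 ± 0.15) rose most. Mtfmt, which formylates the initiator tRNA, fell (-0.45 ± 0.02, adjusted p = 4.61e-05), as did the initiation factor Mtif3 (-0.25 ± 0.13). Of 17 genes of mitochondrial DNA expression 2 were higher and 1 lower: the coactivator Pprc1 (0.46 ± 0.22) and the DNA-binding Ssbp1 (0.22 ± 0.03) rose, and Tfb2m, a transcription factor of mitochondrial DNA, fell (-0.18 ± 0.01). On the processed signals Mtfmt and Chchd1 alone among these 4 lists passed, and with median centring none of the 4 lists held a rise.

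Proteins of the cytosolic ribosome could not be set beside the members. Of 82 genes, 74 had a ratio above 0 past the threshold and 3 below, with a median of 0.64, but in 76 of them the control channel was saturated on both arrays. With saturated probes left out, 6 were higher and 7 lower. Of the unsaturated, Rpl27a read 0.18 and Rpl14 -0.32.

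**Figure D4:**
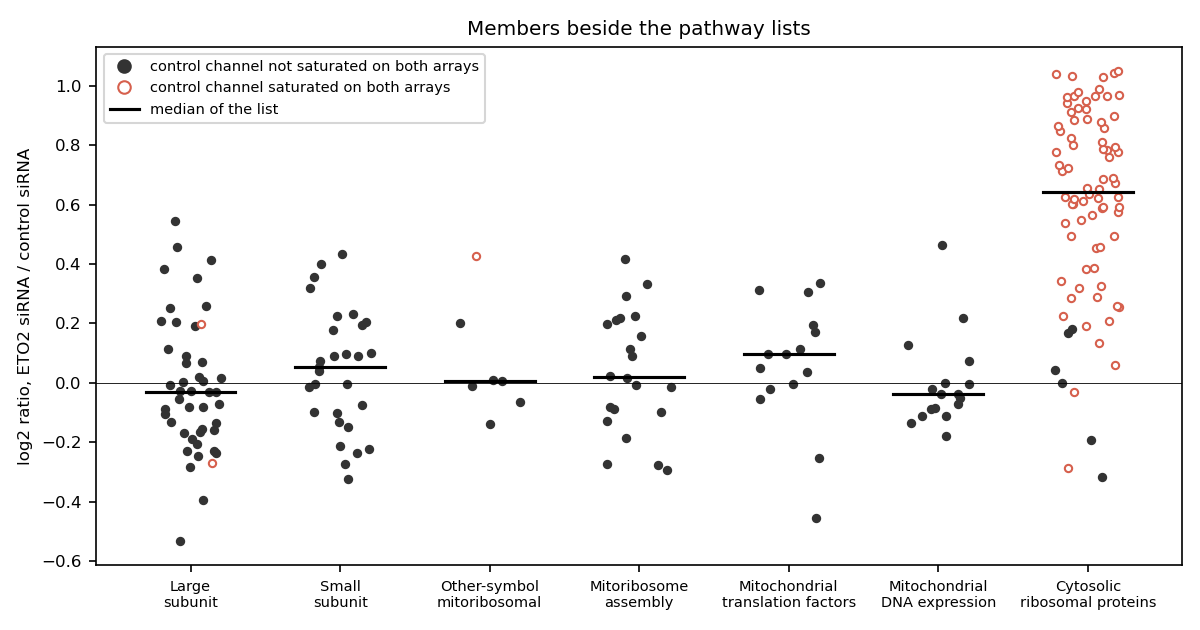
Log2 ratio of ETO2 siRNA over control siRNA (y axis) of the genes of each list (x axis), with the list's median as a bar; open red circles have a control channel saturated on both arrays. The subunit medians are -0.032 and 0.052 and those of the mitochondrial lists -0.038 to 0.097, none of these lists holds a call above 0 with median centring, and most cytosolic ribosomal proteins are saturated.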

How the data were processed

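The members and lists were chosen with earlier results of these data known. Per the file headers, Agilent Feature Extraction 9.1.3.1 read the arrays; mean spot and background intensity were deposited as linear, unnormalized values. The same software subtracted background from its processed intensity and balanced the dyes of each array, per the file headers. The deposited ratio, log10 of red over green, derives from it. Deposited flags mark saturation, signal well above background and outliers. The sources used here give no genome build for the array's design.

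Mean signals were corrected by normexp (offset 50) and loess in limma 3.58.1 (R 4.3.3), with 1639 control features at weight 0. Of 41174 probes, 24430 (59.3%) were kept, named through RefSeq's GRCm38.p6 table (24375 of 41174 by accession, 6301 by symbol, 2426 by synonym), with the brightest kept probe standing for a gene. Log2 ratios were tested against 0 with lmFit and eBayes, two-sided, adjusted by Benjamini-Hochberg over 16585 genes, at a threshold of 0.05; the prior of eBayes had 13.6 degrees of freedom and an SD of 0.0905. Both arrays lay on 1 slide, so no batch could be compared. A bound was taken where a channel was saturated on both arrays. Named in full were, per subunit, the 8 members with the largest rise and the 8 with the largest fall that passed and kept their sign on both arrays, members with probes called both ways, and saturated members; of each list, up to 3 rises and 3 falls. Other mentions of members and of Rpl27a and Rpl14 were chosen after their values were seen. The steps were tested on simulated data that held no dye effect of single probes, so that limit was not tested. The number of arrays limits the precision.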

Additional observations from a re-analysis of the deposited data

How the results depend on the processing

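Counts and medians of the members moved with the background correction, the normalization and the choice of probe. With no offset in the background correction, 12 members were higher and 10 lower (large subunit 7 higher; small subunit 5 higher and 2 lower; small subunit median 0.033), 22 of the 37 calls remained, and 6 genes of the pathway lists were lower against 10. On the processed signals, and likewise on the deposited log ratios, 2 members were higher and 0 lower (large subunit 2 higher and 0 lower, small subunit 0 and 0), 18 members had an unadjusted p under 0.05, the large subunit median was 0.041, the difference of the subunit medians was -0.018, Mrpl23 read 0.14, and 1 gene of the pathway lists was lower. With median centring 0 members were higher (limma; 69 had an unadjusted p under 0.05) and 68 lower, 42 of the large and 26 of the small subunit, with medians of -0.59 and -0.53 and a difference of -0.057, and 24 pathway genes were higher and 78 lower. The members that turned below 0 there were Mrpl22 (-0.058), Mrpl19 (-0.077), Mrpl55 (-0.18), Mrpl47 (-0.16), Mrpl15 (-0.28), Mrpl4 (-0.23), Mrpl2 (-0.31), Mrpl35 (-0.38), Mrpl28 (-0.46), Mrpl38 (-0.30), Mrps5 (-0.067), Mrps35 (-0.091), Mrps2 (-0.13), Mrps22 (-0.20), Mrps21 (-0.27), Mrps17 (-0.36), Mrps6 (-0.28), Mrps18c (-0.38) and Mrps18a (-0.38). With the probes of a gene averaged, 11 members were lower (2 of the small subunit, whose median was 0.040), 23 of the 37 calls remained, Mrpl38 turned to -0.071 and Mrps7 to 0.033, and 5 pathway genes were lower. With every probe taken on its own, 33 probes were higher (17 large and 16 small subunit) and 9 small subunit probes lower, the subunit medians were -0.016 and 0.040 with a difference of -0.056, and 22 pathway probes were lower. With saturated probes left out 22 pathway genes were higher against 90, and 34 of the 37 calls remained. Without the filter on dim probes all 37 remained. Placed by structure, the small subunit median was 0.063.

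On single arrays the large subunit median was -0.046 to -0.027, the small subunit median 0.050 to 0.061, their difference -0.11 to -0.077 and Cbfa2t3 -0.46 to -0.39, and 1 array leaves no test, so no count was made. Cbfa2t3 passed the threshold under every alternative with a test by gene, and was not followed with every probe taken on its own. No paired analysis was possible because each array already holds both conditions and there is 1 group of arrays. Over single members and lists, 470 values kept direction and side of the threshold or moved within their spread, 98 lost and 43 gained a call, 120 moved and 23 reversed; the causes were not tested. Saturation limits the brightest members, and the offset the dimmest.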
